A study of Rattus norvegicus with 24 samples.

Results

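Oxidative phosphorylation genes were followed in rat hippocampus over 48 h after an ischemia operation. Members were the probe sets annotated to exactly 1 gene whose symbol began with Nduf (complex I, NADH dehydrogenase), Sdh followed by a to d (complex II, succinate dehydrogenase), Uqcr (complex III, the cytochrome bc1 complex), Cox followed by 4 to 8 (complex IV, cytochrome c oxidase) or Atp5 (complex V, ATP synthase). Each gene was represented by its probe set with the highest mean over all arrays, and no measured change entered that choice of probe set. This gave 55 genes of the 4083 with a tested probe set: 27 for complex I, 2 for complex II, 3 for complex III, 13 for complex IV and 10 for complex V. All 55 passed the filter on dim probe sets. Of them, 51 lay above the noise level of 41.2 units on all 24 arrays, and Cox5a, Cox6a2, Cox8b and the pseudogene Cox6c-ps1 did not. The symbol rule also took in genes that are not subunits: the assembly factors Ndufaf3, Sdhaf2 and Cox7a2l, and the ATP synthase inhibitor Atp5if1.

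RNA came from hippocampal tissue and was hybridised to Affymetrix rat U34 (set A) arrays. The arm named SHAM was labelled as hypoxia sensitive and the arm named TOL as hypoxia tolerant. Each arm was sampled at 0, 1, 3, 12, 24 and 48 h, with 2 arrays per group from a first and a second experiment, 24 arrays in all. Both arms carried the ischemia operation at every time, 0 h included, so no group without the operation served as a reference. How tolerance was brought about, and the strain, sex and age of the animals, are not in the labels. No label says whether the 2 arrays of a group stand for different animals. The p-values therefore reflect the spread of these samples alone, and that spread may be technical. In bulk tissue, fewer cells of a type and less RNA per cell cannot be told apart.

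The respiratory chain sits in the inner mitochondrial membrane. Complexes I and II pass electrons from NADH and succinate to ubiquinone, complex III passes them on to cytochrome c and complex IV to oxygen, while ATP synthase uses the proton gradient that complexes I, III and IV build. Neurons draw most of their ATP from this pathway, which stops without oxygen during ischemia. A few subunits, among them the membrane core of complex I and the catalytic core of complex IV, are encoded in mitochondrial DNA, and all genes described here are nuclear.

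Levels are normalised intensities in arbitrary units, and a level is compared only within its own probe set. Differences are on the log2 scale with their standard error (SE) and the p-value of limma's moderated test, adjusted by the Benjamini-Hochberg method over all 7092 tested probe sets, and a gene is said to have fallen or risen only with an adjusted p under 0.05. The 2 arrays of a group had correlations of 0.921 to 0.954 over probe sets. The replicate SD had a median of 0.16 (log2) for the 55 genes and of 0.30 for all tested probe sets. The number of arrays limits the precision. Hybridisation ran on 2 days. The first held 11 SHAM arrays and TOL 0 h replicate 1, and the second held SHAM 48 h replicate 2 and the other 11 TOL arrays, so that arm and day can hardly be told apart. Of the 17 measured neuronal marker genes, all lay above the noise level on at least 1 array, and the hippocampal neuron gene Hpca averaged 3603 units at 0 h.

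With the 2 arms averaged, the genes that moved fell, and no member rose at any time. The number that fell against 0 h was 0 of 55 at 1 h, 4 at 3 h, 9 at 12 h, 11 at 24 h and 14 at 48 h. Over all tested probe sets, the share that fell was 0.536% at 1 h, 1.59% at 3 h, 5.57% at 12 h, 8.23% at 24 h and 10.2% at 48 h, while 7.27%, 16.4%, 20% and 25.5% of the members did so from 3 h to 48 h. Probe sets that rose made up 1.47%, 2.35%, 5.77%, 8.93% and 10.7% at the same 5 times. The shares over all tested probe sets include dim ones, and the members had a smaller replicate SD. Among only the probe sets with a mean above the noise level, 2.51%, 8.04%, 11.3% and 14.1% fell at 3, 12, 24 and 48 h. In that fit 4, 11, 11 and 13 members fell at these times. At 1 h, 7 lower and 0 higher members had an unadjusted p under 0.05 by limma. The changes were small. The median log2 difference of the members was -0.13, -0.16, -0.18, -0.14 and -0.14 at 1, 3, 12, 24 and 48 h, against -0.01, -0.01, -0.02, -0.04 and -0.04 for all tested probe sets. These medians stayed below 0 in the alternative fits but ranged from -0.21 to -0.08, -0.33 to -0.14, -0.42 to -0.10, -0.225 to -0.105 and -0.315 to -0.103. Of the 55 members, 47, 44, 38, 41 and 42 lay below 0 at these times.

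**Figure D1:**
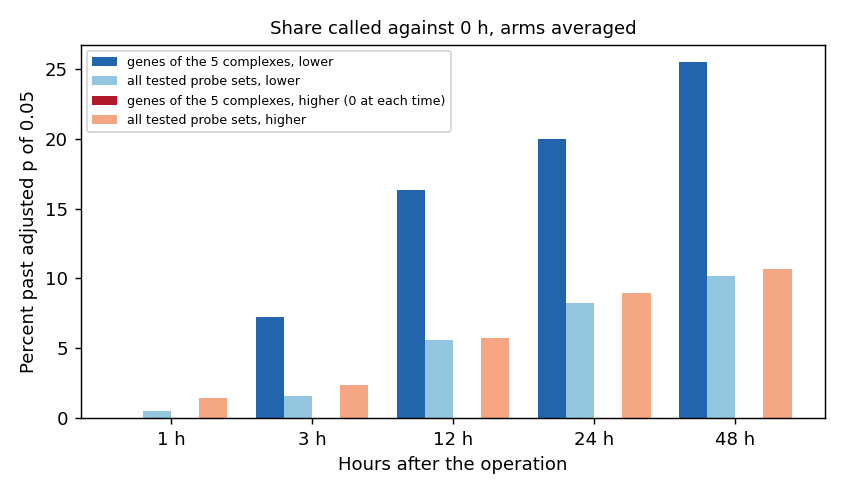
Bars give the percent of the 55 genes and of all 7092 tested probe sets that passed an adjusted p of 0.05 against 0 h with the arms averaged, by hours after the operation. The bars for members that fell grow to 25.5% at 48 h beside 10.2% of all probe sets, and no member rose. Among only the probe sets with a mean above the noise level, which have no bar here, 14.1% fell at 48 h.

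In all, 21 of the 55 genes (38.2%) fell at 1 or more times, against 15.4% of all tested probe sets: 11 of complex I, 3 of complex III, 5 of complex IV and 2 of complex V. The 2 members of complex II were not among them. Those of complex IV were Cox6b1, Cox6c, Cox7b, Cox5a and the pseudogene Cox6c-ps1. Of these, Cox5a and Cox6c-ps1 lay above the noise level on only 8 and 10 of the 24 arrays, and both are counted among the falls at 48 h. Ndufa5, Ndufs4, Uqcr11, Cox6b1 and Cox7b fell at each of 12, 24 and 48 h, as 2.57% of all probe sets did. A difference below 0 at all 5 later times was found for 30 members, 54.5% against 22.2% of all probe sets. The shares of all probe sets given here include dim ones. All 4 arrays lay below all 4 of 0 h for 12.7%, 18.2%, 12.7% and 14.5% of the members at 3, 12, 24 and 48 h. The shares of all probe sets were 3.88%, 7.33%, 9.98% and 11%. The 0 h mean was the highest of the 6 times for 30 members, and the lowest mean stood at 3 h for 12 members, 12 h for 9, 24 h for 13 and 48 h for 12.

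The number of genes past the threshold leaned on single arrays. Without TOL 48 h replicate 1 it was 3 at 48 h, without TOL 24 h replicate 2 it was 3 at 24 h, and it was 3 at 12 h without SHAM 0 h replicate 2, SHAM 12 h replicate 1, SHAM 12 h replicate 2 or TOL 0 h replicate 1. At 3 h it fell to 1 without SHAM 0 h replicate 2, SHAM 3 h replicate 2, TOL 0 h replicate 1 or TOL 3 h replicate 1. With the hybridisation day as a block, 1, 3, 7 and 3 genes passed at 3, 12, 24 and 48 h, against 0.818%, 4.12%, 6.54% and 4.85% of all probe sets that fell in that fit, so that the share of members at 12 and 48 h (3 of 55, 5.45%) was near the background. Of the 38 falls, 10 held whichever array was left out. They were those of Cox6b1 at 3, 12, 24 and 48 h, Uqcr11 at 12 and 24 h, Cox6c at 12 h, Ndufa5 at 24 h, and Uqcrfs1 and Atp5f1e at 48 h, and of these only Atp5f1e missed the threshold with the day as a block (adjusted p = 0.0526).

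**Figure D2:**
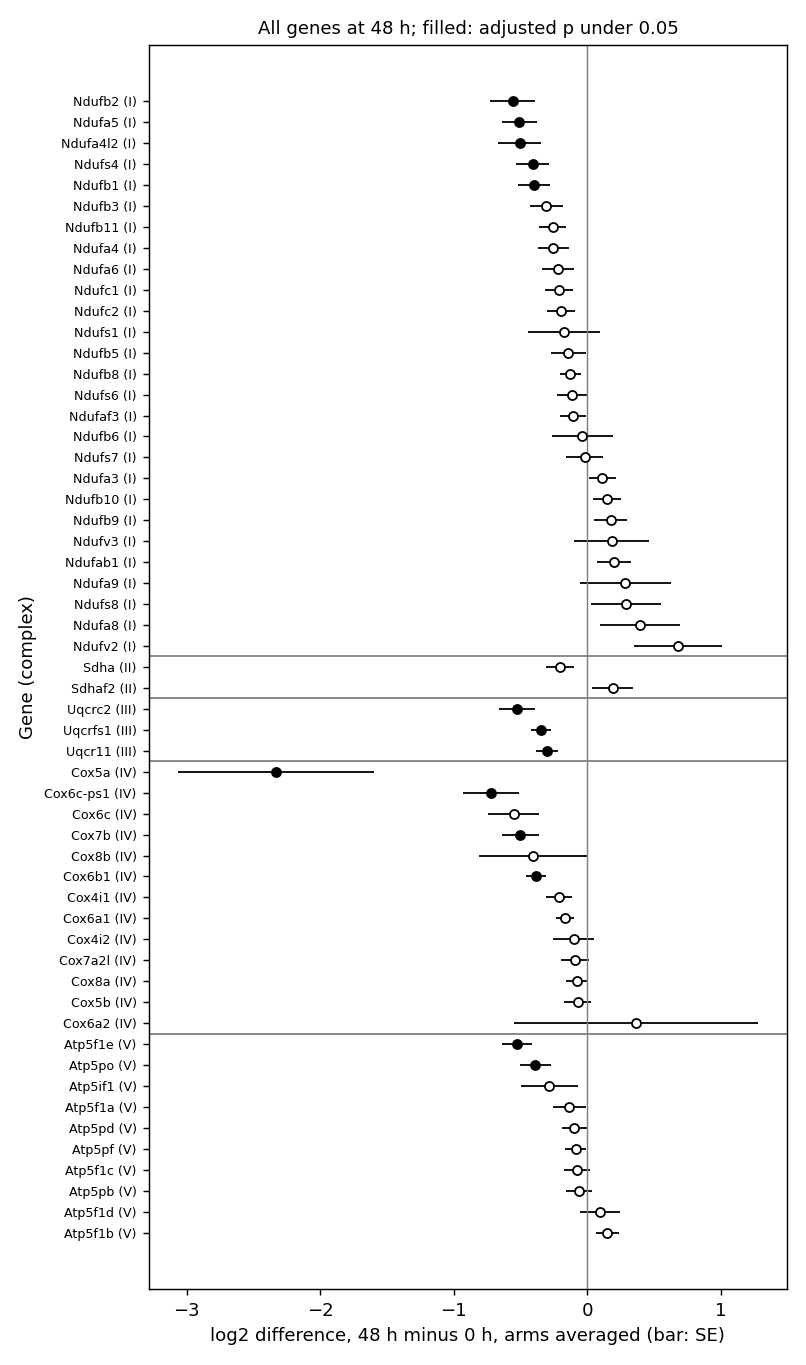
Points give the log2 difference between 48 h and 0 h with the arms averaged for each of the 55 genes, sorted within complexes I to V, and bars give the SE. Filled points passed an adjusted p of 0.05, and all 14 lie left of 0. Cox5a and Cox6c-ps1 lay below the noise level of 41.2 units on most arrays.

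To show what lies upstream of genes that fell together, the 150 bases before the annotated transcription start are printed for 3 of the 5 genes that fell at 12, 24 and 48 h, from RefSeq on the GRCr8 build. Uqcr11 is named only, and Cox6b1 is not shown because the start that the table uses for it lies 1664 bases inside the annotated gene. Capitals mark a match to the NRF-1 motif (GCGCA, then any base, then GCGC), whose factor is a known activator of nuclear respiratory genes.
Ndufa5 (chr4:53971236-53971385, minus strand): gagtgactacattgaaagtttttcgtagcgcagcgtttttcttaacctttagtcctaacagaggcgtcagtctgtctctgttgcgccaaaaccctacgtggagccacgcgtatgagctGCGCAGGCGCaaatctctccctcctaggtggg
Ndufs4 (chr2:47794915-47795064, minus strand): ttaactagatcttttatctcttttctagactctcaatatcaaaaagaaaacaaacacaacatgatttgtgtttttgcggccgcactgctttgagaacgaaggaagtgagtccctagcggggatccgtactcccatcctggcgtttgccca
Cox7b (chrX:75148886-75149035, plus strand): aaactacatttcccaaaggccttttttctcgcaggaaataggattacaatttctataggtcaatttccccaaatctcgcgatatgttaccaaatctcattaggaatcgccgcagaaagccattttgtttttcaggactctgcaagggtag
The printed stretch of Ndufa5 held the NRF-1 letters, and those of Ndufs4 and Cox7b held none of the motifs described in the paragraph on promoters. The longer stretch searched there held 1 match to the YY1 letters for Ndufs4, outside the printed bases.

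Complex I was measured through 4 core iron-sulphur subunits (Ndufs1, Ndufs7, Ndufs8 and Ndufv2), 20 accessory subunits, the assembly factor Ndufaf3, and Ndufa4 with its relative Ndufa4l2. Falls at 1 or more times were found for 9 of the 20 accessory subunits (Ndufa5, Ndufa6, Ndufb1, Ndufb2, Ndufb10, Ndufb11, Ndufc1, Ndufc2 and Ndufs4), for Ndufa4 and for Ndufa4l2, and for 0 of the 4 core subunits. The difference between accessory and core subunits was not tested. Over all tested probe sets, 15.4% fell at 1 or more times, so 0 of 4 is not read as a result about the core subunits. The replicate SD (log2) was 0.49 for Ndufv2, 0.39 for Ndufs1, 0.39 for Ndufs8 and 0.19 for Ndufs7, against a member median of 0.16. The median difference of the accessory subunits was -0.16, -0.19, -0.26, -0.15 and -0.13 at 1, 3, 12, 24 and 48 h, and that of the core subunits -0.0037, 0.0047, 0.10, -0.05 and 0.14.

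Ndufa5, an accessory subunit of the matrix arm, stood on the SHAM arrays at 1132 and 1161 units (0 h), 1245 and 1108 (1 h), 977 and 1115 (3 h), 826 and 799 (12 h), 846 and 581 (24 h) and 787 and 704 (48 h). On the TOL arrays it stood at 1126 and 934 units (0 h), 949 and 905 (1 h), 852 and 874 (3 h), 867 and 714 (12 h), 852 and 676 (24 h) and 703 and 867 (48 h). All arrays of 12, 24 and 48 h lay below all 4 arrays of 0 h, a separation found for 7.33%, 9.98% and 11% of all probe sets at these times, and SHAM 24 h replicate 2 was the lowest of the 24. With the arms averaged, the level went from 1088 ± 104 units (SD, n = 4) at 0 h to 739 ± 133 at 24 h (-0.57 ± 0.13, adjusted p = 0.00793), with -0.44 ± 0.13, adjusted p = 0.0444 at 12 h and -0.51 ± 0.13, adjusted p = 0.0144 at 48 h.

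Ndufs4, an accessory subunit whose loss in humans and mice causes Leigh-like encephalopathy, stood on the SHAM arrays at 564 and 676 units (0 h), 612 and 566 (1 h), 528 and 473 (3 h), 388 and 455 (12 h), 455 and 369.9 (24 h) and 414 and 380.4 (48 h). On the TOL arrays it stood at 633 and 439.8 units (0 h), 424 and 422 (1 h), 420.1 and 418 (3 h), 479.5 and 395 (12 h), 468 and 427 (24 h) and 439.5 and 494 (48 h). The SHAM arrays from 12 h on all lay below both SHAM 0 h arrays. In TOL the 0 h arrays were far apart, and replicate 2, hybridised on the second day, lay within the range of the later TOL arrays. The averaged difference was -0.42 ± 0.12, adjusted p = 0.0448 at 12 h, -0.41 ± 0.12, adjusted p = 0.0339 at 24 h and -0.41 ± 0.12, adjusted p = 0.0316 at 48 h. It missed the threshold with the day as a block (adjusted p = 0.102, 0.0783 and 0.275) and at each time without TOL 0 h replicate 1. At 12 h it was lost in 19 of the 24 fits that left out 1 array, with values from -0.55 to -0.29.

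Among subunits of the membrane arm, Ndufb10 and Ndufb11 fell early. Ndufb10 went from 630.1 ± 57.8 units at 0 h to 463 ± 56.2 at 3 h (SD, n = 4; -0.45 ± 0.10, adjusted p = 0.0267), with 3 h arrays at 429.8 and 405 units in SHAM and 529.8 and 487 in TOL. By 48 h it stood at 699.5 ± 80.5 units and did not differ from 0 h beyond its error (0.15 ± 0.10, adjusted p = 0.334). Ndufb11 went from 569.9 ± 27.4 units to 433 ± 40.4 at 3 h (-0.40 ± 0.10, adjusted p = 0.0418). All 4 arrays of 3 h lay below all 4 of 0 h for both genes, as 3.88% of all probe sets did. With the day as a block neither passed at 3 h (limma's adjusted p = 0.0679 for Ndufb10 and 0.0954 for Ndufb11). Over the fits that left out 1 array, the 3 h difference ran from -0.49 to -0.40 for Ndufb10 and from -0.45 to -0.35 for Ndufb11.

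Ndufb1 fell at 12 h (-0.39 ± 0.12, adjusted p = 0.0495) and 48 h (-0.40 ± 0.12, adjusted p = 0.0309), Ndufc2 at 12 h (-0.37 ± 0.10, adjusted p = 0.0319), Ndufc1 at 24 h (-0.38 ± 0.10, adjusted p = 0.0212) and Ndufa6 at 24 h (-0.38 ± 0.12, adjusted p = 0.0453). Ndufb2 fell at 48 h, from 1799 ± 244 to 1243 ± 331 units (-0.56 ± 0.17, adjusted p = 0.0287). Its 48 h arrays were apart by arm, at 972 and 1011 units in SHAM against 1302 and 1688 in TOL, and TOL 48 h replicate 2 was the 1 array of the 4 that did not lie below every 0 h array. The difference between the arms' changes in Ndufb2 did not pass (0.81 ± 0.33, adjusted p = 0.403). The accessory subunits Ndufa3, Ndufab1, Ndufb3, Ndufb5, Ndufb6, Ndufb8, Ndufb9 and Ndufs6 passed at no time, with values from -0.32 to 0.31 over the 5 times.

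Ndufa4, first described in complex I and later assigned to cytochrome c oxidase, fell at 12 h (-0.40 ± 0.12, adjusted p = 0.0419) and 24 h, from 2689 ± 117 to 1992 ± 143 units (-0.43 ± 0.12, adjusted p = 0.0202). Its relative Ndufa4l2, a hypoxia-induced gene in other mammalian cells, was dim, at 108 ± 11.6 units at 0 h and 76.7 ± 13 at 48 h, and fell there (-0.51 ± 0.16, adjusted p = 0.0399). Of its 5 probe sets, 3 had a mean at or below 0, so its level rests on the other pair, of which the second gave -1.53 ± 0.43, adjusted p = 0.0245 at 24 h with values above the noise level on 17 of 24 arrays. Its day-block value missed the threshold (adjusted p = 0.136).

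Ndufv2, a core subunit next to the NADH-binding site, varied widely between replicates. On the SHAM arrays its level was 816 and 1107 units (0 h), 989 and 1348 (1 h), 961 and 2120.1 (3 h), 1509.6 and 1081 (12 h), 1290.1 and 2244 (24 h) and 2008 and 2327 (48 h). On the TOL arrays it was 1065 and 1441 units (0 h), 1995 and 1078 (1 h), 2044 and 1622 (3 h), 2129 and 1007 (12 h), 1166 and 1163 (24 h) and 1018 and 1928 (48 h). It gave the highest member value at 48 h without passing (0.68 ± 0.33, adjusted p = 0.163), and the accessory subunits Ndufa8 (0.39 ± 0.30, adjusted p = 0.378) and Ndufa9 (0.29 ± 0.34, adjusted p = 0.605) also lay above 0. Ndufv2, Ndufa8 and Ndufa9, chosen for this after their values were seen, shared a pattern within groups. In 12 of 12 groups the same array of the pair was the higher one for all 3, and at SHAM 3 h Ndufv2 differed 2.21-fold between replicates. They ranked 4 to 6 among the 55 in replicate spread, with SDs of 0.50 (Ndufa9), 0.49 (Ndufv2) and 0.44 (Ndufa8) on the log2 scale. The iron-sulphur subunit Ndufs7 had -0.02 ± 0.14, adjusted p = 0.952 at 48 h and Ndufs1, a dim probe set of 42.2 to 117 units, had -0.18 ± 0.27, adjusted p = 0.7.

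Ndufv3, an accessory subunit at the NADH-binding end, had the largest single-arm fall of the 51 members above the noise level, in SHAM at 1 h. Its SHAM arrays stood at 210.4 and 399 units (0 h), 100.2 and 45.4 (1 h), 177 and 125 (3 h), 144 and 155 (12 h), 236 and 279.5 (24 h) and 268 and 189.8 (48 h), and its TOL arrays at 127 and 234 units (0 h), 147 and 189 (1 h), 96.2 and 80.9 (3 h), 148 and 203 (12 h), 367 and 313 (24 h) and 259 and 314 (48 h). Both SHAM 1 h arrays lay below all other SHAM arrays, while both TOL 1 h arrays lay between those of TOL 0 h. The SHAM difference at 1 h was -2.10 ± 0.39, adjusted p = 0.0183, where 0.0846% of all probe sets fell. It missed the threshold when either SHAM 0 h replicate 2 or SHAM 1 h replicate 2 was omitted, within a range of -2.67 to -1.53 over the fits that left out 1 array. In TOL the difference was -0.05 ± 0.39, adjusted p = 1, and the difference between the arms' changes did not pass (2.06 ± 0.56, adjusted p = 0.435). At 3 h both arms lay low, by -0.96 and -0.97, and at 24 h TOL had 0.97 ± 0.39, adjusted p = 0.159.

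**Figure D3:**
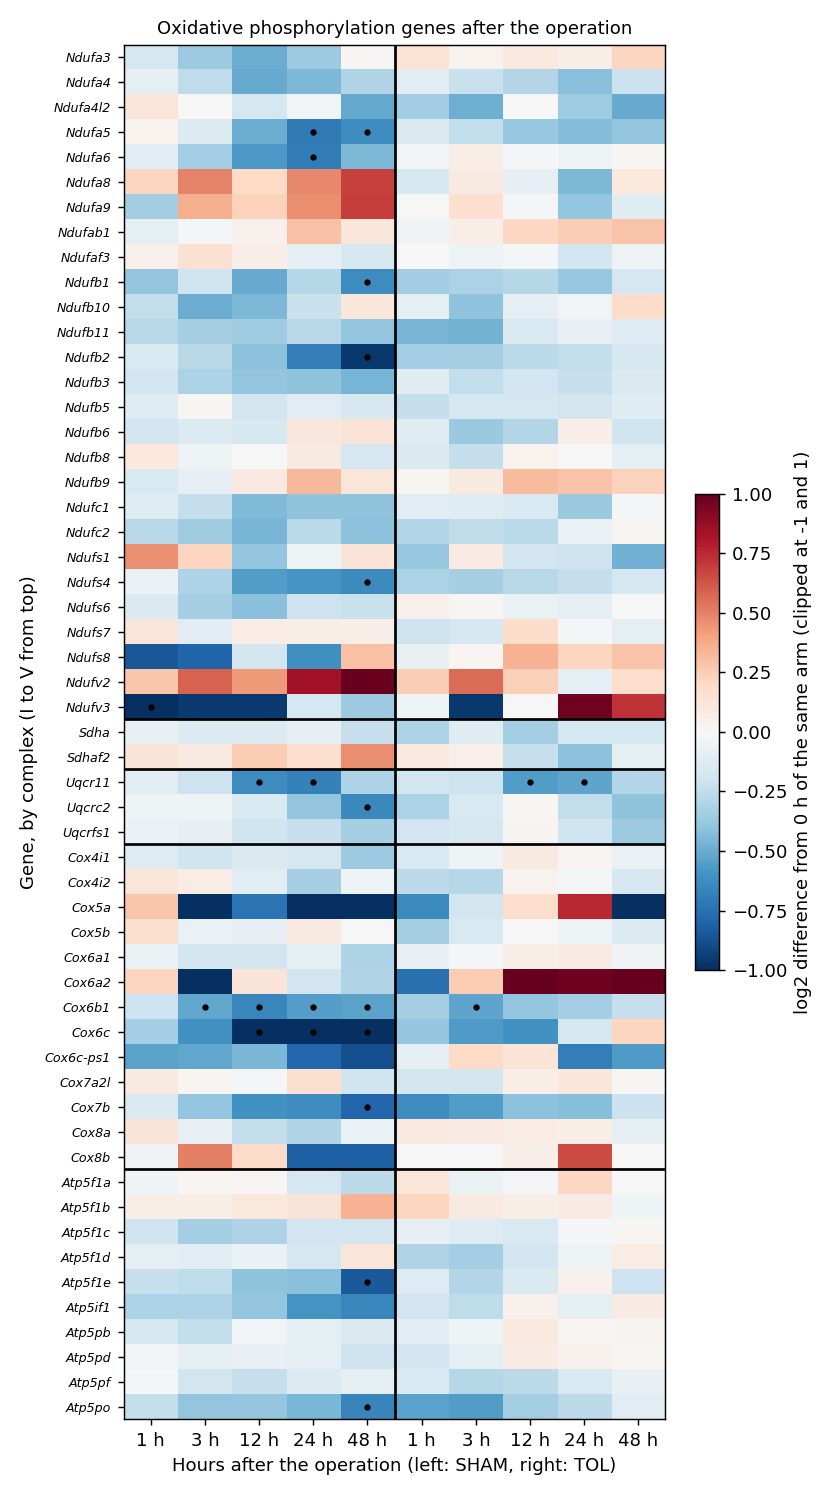
Each cell is the log2 difference of a gene from the 0 h mean of its arm, blue below 0 and red above, clipped at -1 and 1, with SHAM times on the left, TOL times on the right and black lines between complexes I to V. Dots mark adjusted p under 0.05, and there are 20 in SHAM and 3 in TOL, all on falls. Cox5a, Cox6a2, Cox8b and Cox6c-ps1 lay below the noise level on at least 1 array.

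Complex II was represented by its flavoprotein subunit Sdha, which carries the succinate-binding site, and the assembly factor Sdhaf2. Neither passed at any time. Sdha lay below 0 at all 5 later times, from -0.24 at 12 h to -0.13 at 24 h. All 4 of its 48 h arrays lay below all 4 of 0 h (991 ± 41.6 against 1143 ± 77.3 units, -0.20 ± 0.11, adjusted p = 0.195), as 11% of all probe sets did. Sdhaf2 had 0.19 ± 0.16, adjusted p = 0.423 at 48 h.

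In complex III all 3 measured genes fell at 48 h, where 10.2% of all tested probe sets did. Uqcr11, a small accessory subunit, had its lowest values at 12 and 24 h. Its SHAM arrays stood at 2673 and 2525 units (0 h), 2451 and 2390.2 (1 h), 2249.5 and 2244 (3 h), 1641 and 1717 (12 h), 1565 and 1695 (24 h) and 2082 and 2103 (48 h). Its TOL arrays stood at 2502 and 2798 units (0 h), 2547 and 2137 (1 h), 2309.8 and 2278 (3 h), 1738 and 1849 (12 h), 1969 and 1708 (24 h) and 2033 and 2295 (48 h). All 8 arrays of 12 and 24 h lay below all 16 others. The averaged level was 2625 ± 138 units at 0 h, 1736 ± 86.1 at 12 h (-0.60 ± 0.081, adjusted p = 0.000395), 1734 ± 169 at 24 h (-0.60 ± 0.081, adjusted p = 0.000215) and 2128 ± 115 at 48 h (-0.30 ± 0.081, adjusted p = 0.0183). At 48 h it missed the threshold without SHAM 0 h replicate 1, TOL 0 h replicate 2 or TOL 48 h replicate 1, with values from -0.35 to -0.26. A second probe set of Uqcr11 gave -0.79 ± 0.07, adjusted p = 8.71e-06 at 24 h and -0.52 ± 0.07, adjusted p = 0.000381 at 48 h.

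Uqcrfs1, the Rieske iron-sulphur protein that takes electrons from ubiquinol, fell at 48 h. At 48 h its arrays read 961 and 1040.3 units in SHAM and 932 and 997 in TOL, and at 0 h 1182 and 1335 in SHAM and 1218 and 1261 in TOL. The groups did not overlap (-0.35 ± 0.076, adjusted p = 0.00641), a separation found for 11% of all probe sets. A second probe set gave -0.72 ± 0.10, adjusted p = 0.000267, while another did not pass (-0.15 ± 0.13, adjusted p = 0.445). Uqcrc2, core protein 2, went from 1629.8 ± 193 to 1137 ± 183 units (-0.52 ± 0.14, adjusted p = 0.0155). One 48 h array of TOL, at 1391 units, lay above a TOL 0 h array at 1369, and the call was lost with the day as a block (adjusted p = 0.0951).

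In complex IV, Cox6b1, a subunit at the interface of the oxidase dimer, fell at 4 of the 5 later times. Its SHAM arrays stood at 2602 and 2493 units (0 h), 2302 and 2126 (1 h), 1780.3 and 1769.8 (3 h), 1588 and 1660.3 (12 h), 1864 and 1622 (24 h) and 1783 and 1728 (48 h). Its TOL arrays stood at 2485 and 2244 units (0 h), 1938 and 1826 (1 h), 1671 and 1603 (3 h), 1874 and 1747 (12 h), 1958 and 1782 (24 h) and 1969 and 2058 (48 h). Every array of 3 h and later lay below every 0 h array, in both arms. At single times, such a separation was found for 3.88%, 7.33%, 9.98% and 11% of all probe sets from 3 h to 48 h. From 2456 ± 151 units at 0 h, the averaged difference was -0.53 ± 0.073, adjusted p = 0.000758 at 3 h, -0.52 ± 0.073, adjusted p = 0.000506 at 12 h, -0.44 ± 0.073, adjusted p = 0.000928 at 24 h and -0.38 ± 0.073, adjusted p = 0.00261 at 48 h. The values at 1 h were lower too but did not pass (-0.27 ± 0.073, adjusted p = 0.0949). A second, dimmer probe set gave -0.84 ± 0.13, adjusted p = 0.00242 at 3 h and -0.52 ± 0.13, adjusted p = 0.0135 at 48 h.

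Cox7b, a small membrane subunit, stood on the SHAM arrays at 1629 and 1898 units (0 h), 1678 and 1508 (1 h), 1261 and 1441 (3 h), 1172 and 1137 (12 h), 1318 and 995 (24 h) and 1040.3 and 993 (48 h). On the TOL arrays it stood at 1738 and 1287 units (0 h), 948 and 981 (1 h), 894 and 1157 (3 h), 1249 and 1009 (12 h), 1158 and 1068 (24 h) and 1131 and 1474 (48 h). TOL 0 h replicate 1 lay between the SHAM 0 h arrays and replicate 2 was lower, below TOL 48 h replicate 2. The averaged difference was -0.51 ± 0.14, adjusted p = 0.0283 at 12 h, -0.52 ± 0.14, adjusted p = 0.0186 at 24 h and -0.50 ± 0.14, adjusted p = 0.0204 at 48 h. Without TOL 0 h replicate 1 all 3 calls were lost, and with the day as a block 24 h passed (adjusted p = 0.0477) and 12 and 48 h did not (adjusted p = 0.0714 and 0.167).

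**Figure D4:**
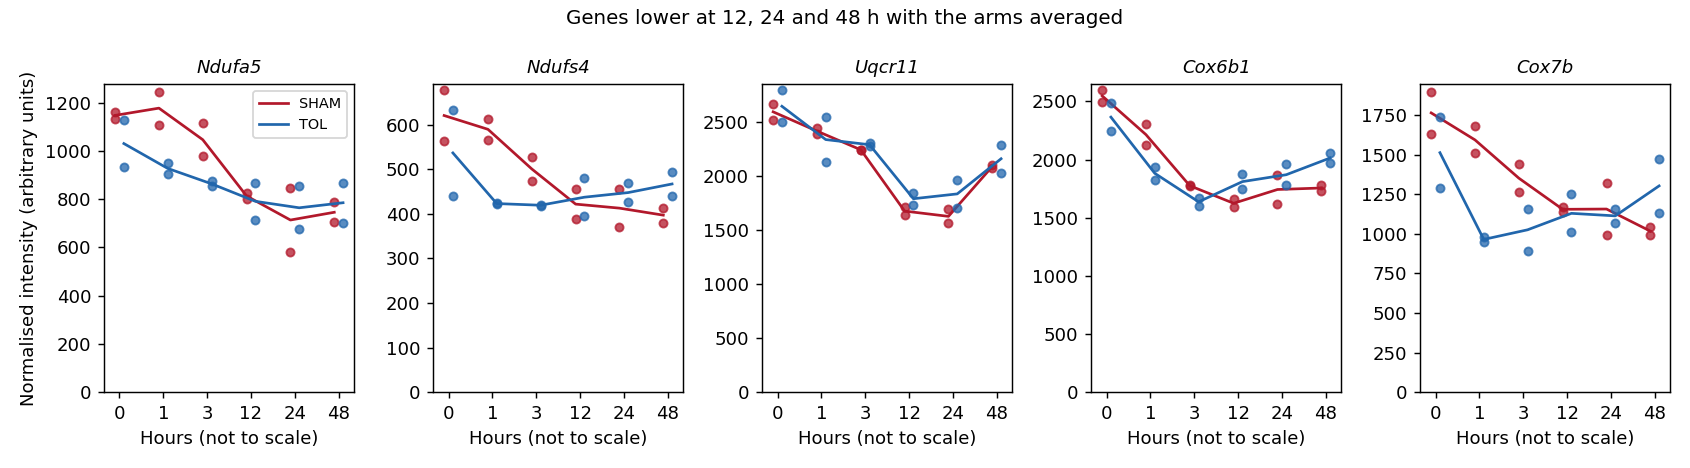
Points are the 2 arrays of each group and lines join the group means, in normalised intensity from 0, for the 5 genes that fell at 12, 24 and 48 h with the arms averaged. The 8 Uqcr11 arrays of 12 and 24 h lie below the other 16, and the Cox6b1 arrays of 3 h and later all lie below those of 0 h.

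Cox6c, another small membrane subunit, fell in SHAM and was followed in each arm. Its SHAM arrays stood at 470.4 and 404 units (0 h), 382 and 309.7 (1 h), 313 and 262 (3 h), 196 and 175 (12 h), 236 and 170.4 (24 h) and 179 and 171 (48 h). Its TOL arrays stood at 339 and 201 units (0 h), 175 and 228 (1 h), 149 and 209 (3 h), 145 and 203 (12 h), 236 and 227 (24 h) and 349 and 263 (48 h). In SHAM the 6 arrays of 12 h and later lay below the 6 earlier ones. In TOL the 0 h arrays were 339 units on the first day and 201 on the second, and the later arrays overlapped with them. The SHAM difference was -1.24 ± 0.27, adjusted p = 0.0151 at 12 h and -1.32 ± 0.27, adjusted p = 0.00769 at 48 h, and the TOL difference -0.61 ± 0.27, adjusted p = 0.251 and 0.22 ± 0.27, adjusted p = 0.711. The difference between the arms' changes at 48 h, the smallest such p among the members, did not pass after adjustment (1.53 ± 0.38, adjusted p = 0.185). Averaged over the arms Cox6c fell at 12 h (-0.92 ± 0.19, adjusted p = 0.00667) and 24 h (-0.65 ± 0.19, adjusted p = 0.0323), the latter not with the day as a block (adjusted p = 0.0783). A second probe set of Cox6c, above the noise level on 15 of 24 arrays, gave 0.0023 ± 0.32, adjusted p = 1 at 12 h and -1.10 ± 0.32, adjusted p = 0.0249 at 48 h. The pseudogene Cox6c-ps1 lay above the noise level on 10 of 24 arrays, so no fold is given for it.

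Isoform pairs of complex IV were measured in part. Cox4i1, the common form of the regulatory subunit, stood between 3895 and 5695 units and had -0.21 ± 0.10, adjusted p = 0.135 at 48 h. Cox4i2, the form that hypoxia induces in mammalian lung and cell lines, had -0.10 ± 0.15, adjusted p = 0.702, and its values at the other times ran from -0.17 to -0.04. Cox6a1 had -0.17 ± 0.067, adjusted p = 0.0929 and Cox8a -0.08 ± 0.081, adjusted p = 0.553. The heart and muscle forms were dim. Cox6a2 ran from -58.5 to 388 units and lay below the noise level on 1 array, while Cox8b lay below it on all 24. Neither passed at any time, with 0.36 ± 0.91, adjusted p = 0.828 for Cox6a2 at 48 h.

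Cox5b, Cox7a2l and Cox8a stayed within -0.12 to 0.13 at the 5 later times, with no call. The 1-gene probe set of Cox5a lay above the noise level on 8 of 24 arrays, and all 4 of its 48 h arrays lay below the noise level (12.4 ± 11.2 units against 46.9 ± 11.9 at 0 h, adjusted p = 0.0382), so that call concerns a level near background. A brighter probe set that Cox5a shares with another gene showed no such fall (0.10 ± 0.10, adjusted p = 0.516 at 48 h).

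In ATP synthase, 2 of the 10 genes fell at 1 or more times. As 15.4% of all tested probe sets did so, this count is near the background and is not read as a result about the complex. Atp5f1e, the epsilon subunit of the central stalk, stood on the SHAM arrays at 2943 and 2547 units (0 h), 2327 and 2348 (1 h), 2424 and 2176 (3 h), 1969 and 2189 (12 h), 1954 and 2144 (24 h) and 1502 and 1555 (48 h). On the TOL arrays it stood at 2622 and 2058 units (0 h), 2064 and 2196 (1 h), 1681 and 2144 (3 h), 1862 and 2382 (12 h), 2377 and 2417 (24 h) and 1933 and 2089 (48 h). Both SHAM 48 h arrays lay below all other 22, and the TOL 48 h arrays lay within the range of the other TOL arrays. The SHAM difference at 48 h was -0.84 ± 0.16, adjusted p = 0.00461 and the TOL difference -0.21 ± 0.16, adjusted p = 0.489, with -0.53 ± 0.11, adjusted p = 0.00488 over both arms. The difference between the arms' changes did not pass (0.63 ± 0.22, adjusted p = 0.311). A second probe set gave -0.47 ± 0.09, adjusted p = 0.003 over both arms.

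Atp5po, the peripheral stalk subunit that sets oligomycin sensitivity, fell at 3 h (-0.48 ± 0.12, adjusted p = 0.0384), 24 h (-0.36 ± 0.12, adjusted p = 0.0488) and 48 h (-0.39 ± 0.12, adjusted p = 0.03). Its 0 h level was 2316 ± 265 units and its 3 h level 1674 ± 278, and every 3 h array lay below every 0 h array, as for 3.88% of all probe sets. With the day as a block none of the 3 passed (adjusted p = 0.0873, 0.0942 and 0.144). The other peripheral stalk genes Atp5pb, Atp5pd and Atp5pf did not pass, nor did the central stalk genes Atp5f1c and Atp5f1d (at 48 h, 0.10 ± 0.15, adjusted p = 0.7 for Atp5f1d). The catalytic head subunits stayed near 0. Atp5f1a ran from -0.14 to 0.04 over the 5 times and Atp5f1b from 0.07 to 0.15, one of 3 members above 0 at all of them. In SHAM at 48 h Atp5f1b had 0.34 ± 0.12, adjusted p = 0.0777. The inhibitor Atp5if1, which binds the head when the gradient collapses, had -0.28 ± 0.21, adjusted p = 0.379 at 48 h.

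Each arm was then compared with its own 0 h. In SHAM 1, 1, 3, 5 and 10 members fell at 1, 3, 12, 24 and 48 h, with 0.0846%, 0.635%, 2.74%, 4.1% and 6.23% of all probe sets. In TOL the counts were 0, 1, 1, 1 and 0, with 0.338%, 0.282%, 1.96%, 3.07% and 3.31% of all probe sets, and no member rose in either arm, where 0.733%, 1.4%, 3.07%, 5.01% and 6.13% of all probe sets rose in SHAM and 0.902%, 0.917%, 2.51%, 4.3% and 4.19% in TOL. At 48 h this was 18.2% of the members in SHAM, above the 6.23%, and 0% in TOL, where 4 lower and 0 higher members had an unadjusted p under 0.05 by limma (5 lower and 0 higher at 1 h). The 10 in SHAM were Ndufa5, Ndufb1, Ndufb2, Ndufs4, Uqcrc2, Cox6b1, Cox6c, Cox7b, Atp5f1e and Atp5po, with differences from -1.32 for Cox6c to -0.54 for Cox6b1. At 24 h Ndufa6 also fell there (-0.70 ± 0.17, adjusted p = 0.019). Both Cox6b1 and Uqcr11 fell in both arms, Cox6b1 at 3 h in each and Uqcr11 at 12 and 24 h in each. The median difference of the 55 was -0.10, -0.18, -0.20, -0.21 and -0.26 in SHAM and -0.15, -0.17, -0.02, -0.08 and -0.09 in TOL, with those of all probe sets between -0.02 and 0 in SHAM and between -0.04 and -0.01 in TOL. The order of the arms depended on the scaling. On the deposited scale the members' median was -0.35 in SHAM and -0.37 in TOL at 12 h and -0.17 and -0.39 at 48 h, where that of all probe sets was -0.06 and -0.365 at 12 h and 0.18 and -0.28 at 48 h. Relative to all probe sets, the members then lay lower in SHAM than in TOL at both times. Without TOL 12 h replicate 2 the TOL median at 12 h was 0.04, and without TOL 48 h replicate 1 that at 48 h was 0. For the 38 averaged falls, the difference lay below 0 in both arms in all 38, and further below 0 in SHAM in 34 of them. These falls were chosen by the mean of the 2 arms' differences, which favours a like sign in both. They belong to 21 genes, and the times share the 0 h arrays, so the counts are not independent. Of the 38, 3 passed in both arms, 15 in SHAM only, 0 in TOL only and 20 in neither.

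These counts changed within days and without single arrays. Within the first day, with 11 SHAM arrays, 0, 0 and 3 members fell at 1, 3 and 48 h, and within the second day, with 11 TOL arrays, none fell at 3, 12 or 24 h. In SHAM the count at 24 h was 2 without either 0 h array and 8 without SHAM 24 h replicate 1, and that at 48 h was 3 without any of the SHAM 0 h or SHAM 48 h arrays in turn. In TOL, Cox6b1 at 3 h was lost without TOL 0 h replicate 1 or either 3 h array, and Uqcr11 without TOL 0 h replicate 2 at 12 and 24 h.

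The difference between the arms' changes was tested directly, and no member passed it. By the F test over all 5 times 0 of 55 passed, against 0.353% of all probe sets, and 4 had an unadjusted p under 0.05. At single times 0 members passed, and 2, 0, 2, 3 and 5 had an unadjusted p under 0.05 at 1, 3, 12, 24 and 48 h. Shares of all probe sets past the threshold were 0.0423%, 0.0282%, 0.155%, 0.127% and 0.268%. The median of the change in TOL minus the change in SHAM was -0.04 and -0.03 at 1 and 3 h and 0.18, 0.14 and 0.20 at 12, 24 and 48 h, against -0.02, -0.01 and -0.02 for all probe sets at the latter 3 times. On the deposited scale it was -0.02, 0.07 and -0.17 there, and with each array divided by its median 0.29, 0.29 and 0.31. All probe sets shifted between the arms on the deposited scale. Their median change at these 3 times was -0.056, 0.007 and 0.179 in SHAM and -0.365, -0.151 and -0.28 in TOL. Since a p-value that misses the threshold does not show equal changes, the members are described in each arm above.

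**Figure D5:**
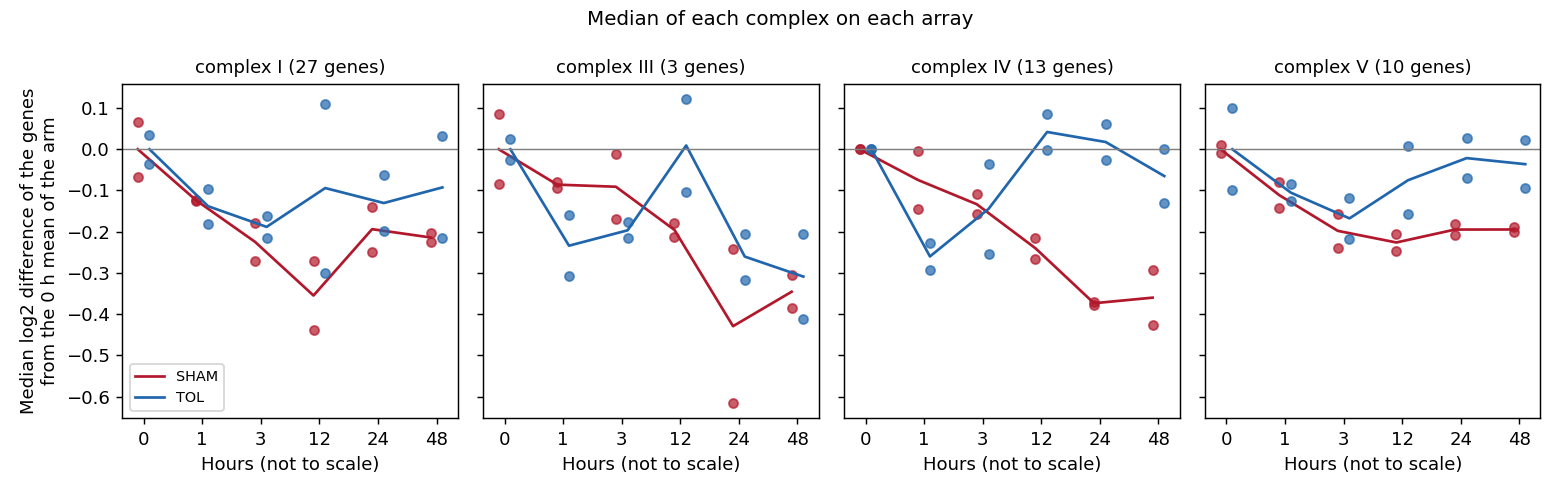
Points give, for each array, the median log2 difference of the genes of complexes I, III, IV and V from the 0 h mean of the arm, and lines join the means of the 2 arrays. From 12 h on, both SHAM points of complex IV lie below both TOL points, and those of complex V do so as well. The points of the arms overlap for complex III at 24 and 48 h, and for complex I at 12, 24 and 48 h. Values are quantile-normalised. On the deposited scale the median of all 55 genes lay lower in TOL than in SHAM at 12 and 48 h. The median of all tested probe sets did so too.

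Over a whole time course, 7 members passed the F test in SHAM (Atp5f1e, Cox6b1, Cox6c, Ndufa5, Ndufb10, Ndufv3 and Uqcr11) and 3 in TOL (Cox6b1, Ndufv3 and Uqcr11). These were 12.7% and 5.45% of the members, below the 15.7% and 11.7% of all tested probe sets. The SHAM count was 3 without SHAM 0 h replicate 1 and 13 without SHAM 24 h replicate 1, and the TOL count was 0 without TOL 24 h replicate 2 and 1 without any of 10 other arrays.

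Between the arms on average over the 6 times, 2 members were higher in TOL and 0 lower, against 4.72% and 4.58% of all probe sets. Ndufs8, a core iron-sulphur subunit, averaged 376 units in TOL and 217 in SHAM (0.87 ± 0.15, adjusted p = 0.00682). Ndufb10 averaged 645 and 513 units (0.34 ± 0.059, adjusted p = 0.00692). For Ndufs8 the 11 SHAM arrays of the first day ran from 97.1 to 304 units with a median of 216, and the 11 TOL arrays of the second day from 300.5 to 462 with a median of 397. The arrays that crossed days stood at 335 units (SHAM 48 h replicate 2, whose first-day partner at 304 was the highest SHAM array of that day) and 269 (TOL 0 h replicate 1). For Ndufb10 the first-day SHAM arrays had a median of 476 units and the second-day TOL arrays one of 636, and the crossing arrays stood at 597 (SHAM) and 687 (TOL), so that the TOL array lay above its arm's median. With the day as a block neither passed, Ndufs8 at 0.54 ± 0.34 (adjusted p = 0.998) and Ndufb10 at 0.44 ± 0.13 (adjusted p = 0.796). The part of the day in these differences cannot be told apart from that of the arm.

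At single times no member differed between the arms, with 1, 12, 4, 7, 4 and 5 of the 55 at an unadjusted p under 0.05 from 0 h to 48 h, where 0.0705%, 0.0423%, 0.0141%, 0.282%, 0.113% and 0.169% of all probe sets were higher in TOL and 0.0282%, 0.0141%, 0%, 0.127%, 0.0705% and 0.127% lower. Of the 21 genes that fell, 16 were higher in TOL 0 h replicate 1, hybridised on the first day, than in TOL 0 h replicate 2, hybridised on the second. For 17 of the 21 the SHAM 0 h mean lay above TOL 0 h replicate 2. Over all 55 members the counts were 32 and 34, and the 21 were chosen by their 0 h values. With both arrays that crossed days left out, so that each arm was compared within its own day, 1, 3, 3 and 4 members fell at 3, 12, 24 and 48 h, against 0.606%, 3.38%, 5.12% and 5.03% of all probe sets. At 24 h the share of members (3 of 55, 5.45%) was near the background. Under that fit, chosen after the data were seen, Cox6b1 fell at all 4 times, Uqcr11 at 12, 24 and 48 h, Cox6c at 12 h, Ndufa5 at 24 h, and Uqcrfs1 and Atp5f1e at 48 h.

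Probe sets of the same gene gave a check within the arrays. Of the members, 28 had more than 1 probe set, and 20 had at least a pair above the noise level on all 24 arrays. The signs of these probe sets matched in 13, 15, 12, 12 and 15 of the 20 genes at 1, 3, 12, 24 and 48 h. The widest spread was that of Ndufaf3 at 48 h, 0.83 on the log2 scale, and one of its 3 probe sets fell at 12 h (-0.66 ± 0.19, adjusted p = 0.0372). For Cox6a1, a dim probe set of 134 units rose at 24 h (0.52 ± 0.15, adjusted p = 0.0265), while the 4829-unit probe set that stood for the gene had -0.01 ± 0.067, adjusted p = 0.963.

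In further genes a probe set that did not stand for the gene fell at a time when the one that did missed the threshold. Ndufc1 had -0.54 ± 0.16, adjusted p = 0.047 at 12 h against -0.30 ± 0.10, adjusted p = 0.087. At 48 h Cox8a had -0.32 ± 0.09, adjusted p = 0.0224 against -0.08 ± 0.081, adjusted p = 0.553. Atp5if1 had -0.60 ± 0.17, adjusted p = 0.0208 against -0.28 ± 0.21, adjusted p = 0.379. Atp5pf had -0.74 ± 0.24, adjusted p = 0.0435 against -0.09 ± 0.079, adjusted p = 0.476. Uqcr11 had -0.33 ± 0.07, adjusted p = 0.0259 at 3 h against -0.21 ± 0.081, adjusted p = 0.203, and Uqcrfs1 -0.35 ± 0.10, adjusted p = 0.0246 at 24 h against -0.22 ± 0.076, adjusted p = 0.0692. A second probe set of Cox6c at 48 h and one of Ndufa4l2 at 24 h, above the noise level on 15 and 17 of the 24 arrays, did so as well. With a gene counted when any of its probe sets passed, 5 rather than 3 members changed over time in TOL and 6 rather than 2 differed between the arms on average.

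Other mitochondrial genes were counted from lists. Of 16 measured genes around the tricarboxylic acid cycle, 1, 1, 2, 0 and 3 fell and 0, 1, 0, 1 and 0 rose at 1, 3, 12, 24 and 48 h. Of all tested probe sets, 0.536%, 1.59%, 5.57%, 8.23% and 10.2% fell and 1.47%, 2.35%, 5.77%, 8.93% and 10.7% rose at these times. In lists this short, a count of 1 gene is not read as a result about the list. The pyruvate dehydrogenase subunit Pdhb fell at 48 h (-0.87 ± 0.18, adjusted p = 0.0045), with the E1 alpha subunit Pdha1 (-0.27 ± 0.07, adjusted p = 0.0132), and Idh1, the cytosolic isocitrate dehydrogenase, fell at 3 h (-0.66 ± 0.09, adjusted p = 0.00072). The pyruvate dehydrogenase phosphatase Pdp1 rose at 24 h (0.84 ± 0.17, adjusted p = 0.00349). Of 3 measured electron carriers, Etfdh, which feeds electrons from fatty acid oxidation to ubiquinone, fell at 3 h (-0.62 ± 0.13, adjusted p = 0.0161) and 12 h (-0.53 ± 0.13, adjusted p = 0.0156).

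Of 5 measured mitochondrial chaperones and proteases, 0, 1, 3, 4 and 1 rose at the 5 times and none fell, with a median difference of 1.03 at 24 h. Of all tested probe sets, 5.57%, 8.23% and 10.2% fell and 5.77%, 8.93% and 10.7% rose at 12, 24 and 48 h. The chaperonin genes Hspd1 and Hspe1 had 2.14 ± 0.11, adjusted p = 1.99e-08 and 1.61 ± 0.12, adjusted p = 1.02e-06 at 24 h, the import chaperone Hspa9 had 1.03 ± 0.17, adjusted p = 0.00121 and the cyclophilin Ppif 0.35 ± 0.09, adjusted p = 0.0196. Prohibitin 2 (Phb2), from the list of assembly factors, had 0.49 ± 0.08, adjusted p = 0.00105 at 12 h. Of 15 measured carriers and channels 1 fell at 24 h (Slc25a14, -0.53 ± 0.16, adjusted p = 0.0357). At 48 h 1 fell, the mitochondrial creatine kinase Ckmt1 (-0.57 ± 0.14, adjusted p = 0.0127), and 2 rose, Ucp2 (0.49 ± 0.12, adjusted p = 0.0118) and Slc25a20, the carnitine carrier (1.11 ± 0.37, adjusted p = 0.0495). Among 5 regulators of mitochondrial gene expression, 2 of them below the noise level on all arrays, Ssbp1 fell at 12 h (-0.57 ± 0.13, adjusted p = 0.0117).

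Cell type markers moved over the same times. Beside the counts below, 0.536%, 1.59%, 5.57%, 8.23% and 10.2% of all tested probe sets fell at the 5 times, and 10.7% rose at 48 h. Of 17 neuronal markers 0, 0, 4, 7 and 8 fell at 1, 3, 12, 24 and 48 h and 1 rose, Syn2 at 48 h, and their summed level ran from 23498 to 25243 units on the 0 h arrays and from 18131 to 20706 on the 48 h arrays. The neuronal ubiquitin hydrolase Uchl1 had -0.52 ± 0.08, adjusted p = 0.000326 at 24 h, and Hpca -1.16 ± 0.12, adjusted p = 3.82e-05 at 48 h. Of 13 microglia and macrophage markers 9 rose at 48 h, with sums of 2525 to 2820 units at 0 h and 3768 to 7521 at 48 h, and 2 of the 13 stayed below the noise level on all arrays. Of 9 astrocyte markers 1 fell and 2 rose at 48 h (sums of 12600.3 to 14192.5 units at 0 h and 14625 to 16010.5 at 48 h), and of 7 oligodendrocyte and 4 choroid plexus markers none passed at any time. The choroid plexus sums differed several-fold between arrays, from 943 to 7316 units over the 24, with 1230.1 to 2496 at SHAM 0 h, 4275 to 5634 at TOL 0 h and 1024.5 and 5597 on the 2 arrays of SHAM 12 h. Of 8 endothelial and vessel markers Slco1a4 had -0.96 ± 0.19, adjusted p = 0.0203 at 1 h and -1.49 ± 0.19, adjusted p = 0.000451 at 3 h, and Tagln 2.35 ± 0.55, adjusted p = 0.00941 at 24 h and 3.29 ± 0.55, adjusted p = 0.00107 at 48 h, and of 5 blood markers the haemoglobin genes Hbb (-0.79 ± 0.19, adjusted p = 0.0497) and Hbb-b1 (-0.70 ± 0.16, adjusted p = 0.0433) fell at 1 h, Hbb also at 3 h (-0.75 ± 0.19, adjusted p = 0.0431), and S100a8 rose at 48 h (2.26 ± 0.66, adjusted p = 0.0278). Blood sums ran from 3208 to 4744 units at 0 h, 2077 to 3013 at 1 h and 3694 to 6030.2 at 48 h. The microglial gene Aif1 had 0.89 ± 0.12, adjusted p = 0.00016 at 48 h. At 3 h the median difference of the 17 neuronal markers was 0.08. The part of these cell types in the falls of the oxidative phosphorylation genes was not tested.

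Of the 55 genes, 47 had a promoter in the RefSeq table, from 250 bases before to 50 after the start. That start was the outer 5′ end of the annotated gene for 31 of them and lay inside the gene for 16. Both strands were searched for the letters of motifs known from respiratory genes, and 27457 promoters of the same length gave the comparison. The NRF-1 letters were found in 12.8% of the members and 4.71% of all promoters, the GABP letters (CCGGAAG) in 21.3% and 9.22%, and the YY1 letters (AAGATGGC) in 23.4% and 3.44%. The NF-Y letters (CCAAT) were found in 36.2% and 37.7%. The YY1 letters hold the triplet ATG, so a match after the start can be a start codon, and no motif here contains another. Among the 18 members that fell at some time and had a promoter, 11.1% held the NRF-1 letters, 11.1% the GABP letters, 22.2% the YY1 letters and 38.9% the NF-Y letters, and among the 29 others 13.8%, 27.6%, 24.1% and 34.5%. A match is a description of letters and not a binding site.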

How the data were processed

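The deposited values are hybridisation intensities per probe set on 24 arrays, and how the authors summarised and scaled them is not given in the sources used here. In the deposited tables, 21.9 to 24.5% of intensities per array were at or below 0, and array medians ran from 51.6 to 85.6 units. Of 8799 probe sets, 59 controls were left out. By the platform annotation 7018 probe sets had 1 gene symbol, 308 several and 1473 none, and only those with 1 were named as members.

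Intensities were quantile-normalised between arrays, floored at the 25th percentile (3.49 units) and put on the log2 scale. A probe set was kept where both arrays of 1 or more groups exceeded that floor, and the 7092 kept were fitted with limma 3.58.1 (R 4.3.3) with 12 group means, 12 residual degrees of freedom and 1.47 prior ones. Contrasts were each time against 0 h in SHAM, in TOL and averaged, their difference, TOL minus SHAM, and F tests, with Benjamini-Hochberg adjustment over all 7092 and a threshold of 0.05. Every adjusted p in the text is limma's. The comparisons with 0 h share the 0 h arrays. The noise level (41.2 units) is the 99th percentile of the values of 1957 probe sets with a mean at or below 0. Hybridisation days were read from the file headers, and arrays less than 5 minutes apart there were taken as 1 of 6 fluidics runs.

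The rule for named genes took every member past the threshold, the 2 highest and 2 lowest per complex at 48 h, isoform families, genes whose probe sets disagreed, and at most 4 genes per list by p-value. Members and lists were chosen with earlier results of these data known. The fit was tested on simulated data. Alternatives were other scalings, floors and filters, blocks for replicate number, day and run, single-arm fits and leaving out each array. The promoter table is RefSeq's for GRCr8. Plots used Python 3.11.15 with numpy 2.4.6 and matplotlib 3.10.9.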

Additional observations from a re-analysis of the deposited data

Results flagged for a closer look

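Some probe sets that the annotation gives to 2 genes, 1 of them an oxidative phosphorylation gene, were outside the 55 and passed the threshold with the arms averaged. They are noted because they belong to the same complexes but cannot be assigned to 1 gene. The probe set shared by Ndufb4 and Ndufb4l4 (complex I) had a log2 difference of -0.55 at 12 h and -0.54 at 24 h. The one shared by Cox7a2 and Cox7a2l2 (complex IV) had -0.44 at 12 h and -0.39 at 24 h. Of the probe sets for the membrane ring of ATP synthase, the one shared by Atp5mc1 and Atp5mc1l1 had -0.38 at 3 h and -0.34 at 12 h, and the one shared by Atp5mc2 and Atp5mc2l1 had -0.35 at 12 h. In each case the deposited values do not say which of the 2 genes gave the signal.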

How the results depend on the processing

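No difference past the threshold changed sign under any alternative that kept the same probe set for the gene. Of the 63 single-gene differences past the threshold (38 with the arms averaged, 20 in SHAM, 3 in TOL and 2 between the arms), 62 passed with each array divided by its median, 38 on the deposited scale, 60 with the floor at the 40th percentile, 62 with no filter, 58 with the replicate block, 63 with the fluidics run as a random block, 29 with the day as a block and 27 with each arm within its own day, an alternative chosen after seeing the data. The cause of these changes was not tested. The deposited scale moved the median of all probe sets to -0.12 at 3 h and -0.22 at 12 h.

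Counts of members past the threshold that moved by over 1.5 times were these, with the arms averaged (main counts 0, 4, 9, 11 and 14 at 1, 3, 12, 24 and 48 h) unless an arm is named. With each array divided by its median they were 24 at 48 h, 7, 14 and 20 at 12, 24 and 48 h in SHAM, 2 at 48 h in TOL and 14 by the F test in SHAM. On the deposited scale they were 0, 2 and 3 at 3, 24 and 48 h in SHAM, 0, 2, 0 and 2 at 3, 12, 24 and 48 h in TOL, 1 and 0 by the F tests in SHAM and TOL, and 1 between the arms. With the floor at the 40th percentile they were 1 at 1 h, 5 at 12 h in SHAM, 2, 2 and 1 at 12, 24 and 48 h in TOL and 12 by the F test in SHAM. With no filter they were 1 at 1 h, 2, 2 and 1 at 12, 24 and 48 h in TOL, 11 by the F test in SHAM and 4 between the arms. With only probe sets above the noise level they were 5 at 12 h in SHAM, 2, 2 and 1 in TOL, 12 by the F test in SHAM and 5 between the arms. With the fluidics run as a random block they were 6 and 8 at 12 and 24 h in SHAM, 2, 2 and 1 in TOL, 13 by the F test in SHAM and 7 between the arms.

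With the day as a block they were 1, 3, 7 and 3 at 3, 12, 24 and 48 h, 3 at 48 h in SHAM, 0 at 3 h and 1 by the F test in TOL, and 0 between the arms. With each arm within its own day they were 1, 3, 3 and 4, with 3 at 48 h in SHAM, 0 at 3 and 12 h and 1 by the F test in TOL, and 4 between the arms. Within the first day SHAM gave 0, 0 and 3 at 1, 3 and 48 h and 1 by the F test, and within the second day TOL gave 0 at 3, 12 and 24 h and 1 by the F test. With only the SHAM arrays there were 0, 0, 3 and 6 at 1, 3, 24 and 48 h and 4 by the F test, and with only the TOL arrays 0 at 3, 12 and 24 h and 0 by the F test. With any probe set of a gene, TOL gave 3, 2 and 2 at 12, 24 and 48 h and 5 by the F test, and 6 differed between the arms. Among the probe sets that stood for the genes, only Atp5f1b was called higher in any of these fits (another probe set of Cox6a1 rose at 24 h), in SHAM at 48 h with no filter (0.34 on the log2 scale, adjusted p = 0.0413 by limma) and with the run as a random block (0.36, adjusted p = 0.0481).

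Leaving out each array in turn gave 0 to 1, 1 to 6, 3 to 11, 3 to 12 and 3 to 16 members at 1, 3, 12, 24 and 48 h. In SHAM it gave 0 to 1, 0 to 1, 2 to 5, 2 to 8 and 3 to 11, and in TOL 0 to 1, 0 to 1, 0 to 2, 0 to 1 and 0 to 0. The F tests gave 3 to 13 in SHAM, 0 to 3 in TOL and 0 to 1 for the difference between the arms, and 2 to 5 members differed on average. The group left with 1 array was assumed to vary like the others. Same-numbered arrays did not deviate together, with correlations of -0.17 to 0.18 and 7 of 66 pairs over 0.1, so the numbers were not taken as pairing. The fit with the replicate block called 2 members at 12 h in TOL. Dim signal limited Cox5a, Cox6a2, Cox8b and Cox6c-ps1.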
